A study of Rattus norvegicus with 3 samples.

Results

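Nrgn, Gap43, Basp1, Marcks and Pcp4 encode proteins that bind calmodulin, and most of them also sit on membrane lipids. Their transcripts were described in 3 single somata of cultured rat hippocampal neurons. The members were the 12 probe sets, of 31099 on the array, whose only gene symbol in the platform annotation was 1 of these names, so that 5 of 14218 measured genes were covered. These genes were chosen with the levels on the same arrays known, and their levels are therefore given as a description without a test.

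All 3 arrays formed 1 group with no second condition and no treatment. Each array carried amplified RNA of 1 soma taken by glass pipette from a neuron that the labels call pyramidal, out of a dispersed primary culture from Sprague-Dawley rats at embryonic day 19 that had grown for 14 days. The somata are called cells 1, 2 and 3 after the replicate number in the labels, which name no animal and no dish, so the spread between them may be partly technical. Such a neuron lacks the tissue around it, and 1 array holds 1 amplification of 1 cell, so that biological and technical variation cannot be told apart.

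Calmodulin is the main calcium sensor of neurons, and several abundant proteins hold it at the membrane until calcium rises or protein kinase C phosphorylates them. Nrgn (neurogranin, in dendritic spines), Gap43 (neuromodulin, in axons and growth cones) and Pcp4 (PEP-19) bind calmodulin through an IQ motif. Nrgn and Gap43 prefer it when calcium is low. Marcks and Basp1 are myristoylated proteins of the inner face of the plasma membrane that gather phosphoinositides and shape the actin cortex, and they release the membrane on phosphorylation or on binding of calmodulin. Gap43, Basp1 and Marcks are classical proteins of growing neurites, whereas Nrgn belongs to mature forebrain neurons.

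The deposited values are log2 intensities of probe sets. The level of a gene was the median of its probe sets, and its percentile is its place among all 14218 genes of the same array. Brightness depends on how well probes bind as well as on how much RNA is there, so that the order of genes given here is an order of readings and not of transcript abundance. Background was the 95th percentile of 133 genes that neurons are not known to use, such as milk, pancreas and plasma proteins and chemosensory receptors. It lay at 9.67, 10.04 and 9.49 log2 in cells 1, 2 and 3, against array medians of 7.23, 7.16 and 7.09. By construction 7 of these 133 silent genes passed it in each cell. Passing it is therefore not proof of expression, and falling short is not proof of absence.

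The label of the somata was checked against markers. The general neuronal markers had a median percentile of 87.2 ± 4.63 (SD, n = 3 cells; 12 genes), with Mapt (the microtubule protein tau) leading at 97.4, 99.3 and 99.5 in cells 1, 2 and 3, and with Map2 (28.7, 17.7 and 67.5) and Syt1 (31.9, 24.7 and 7.09) low. The 9 pyramidal markers measured had medians of 49.7, 29.0 and 87.2, and their members went different ways. In cells 1 and 2 these medians lay under those of the interneuron, oligodendrocyte and microglial markers. In cell 2 the pyramidal median was also under that of the astrocyte markers, while in cell 3 it was above all of these. Neurod2 was in the top 5% of every cell and Dlg4 read 89.5, 98.8 and 97.3, while Slc17a7, the vesicular glutamate transporter of such cells, lay at 55.3, 51.2 and 51.2 and Camk2a at 26.5, 19.6 and 26.2. Slc17a6 (14.1, 29.0 and 94.7), Neurod6 (54.4, 71.6 and 96.5) and Neurod1 (17.6, 17.4 and 87.2) read highest in cell 3, and Emx1 (49.7, 25.7 and 40.3) and Tbr1 (2.13, 14.6 and 23.9) lay under the median gene in every cell. Cell 1 stood apart from the others. In it 4 of 9 microglial markers were in the top 5% (Tyrobp, C1qc, Csf1r and Itgam), against 0 in cells 2 and 3. The rule places 5.01%, 5.01% and 5% of all genes there. Of the others in cell 1, Cd68 lay at 85.2 and C1qb at 51.6, while C1qa (21.5), Cx3cr1 (17.2) and Aif1 (1.65) were low. The median percentile of the 9 was 85.2, 50.3 and 28.3 in cells 1, 2 and 3. The general neuronal markers had medians of 83.1, 86.2 and 92.2, so their median lay under the microglial one in cell 1. Astrocyte markers had medians of 47.5, 49.7 and 37.4 (9 genes), oligodendrocyte markers 75.1, 64.5 and 56.6 (8 genes) and interneuron markers 57.3, 70.1 and 36.7 (9 genes). Single markers of these types above background were Calb2 in cells 1 and 3 (98.3 and 99.1), Vip in cell 2 (97.0), S100b in cell 1 (98.9) and Sox10 in cell 2 (94.8). The part of other cell types in the readings of the members was not tested. The 3′ probe set of the Gapdh control exceeded the 5′ probe set by 0.20, 3.06 and 2.93 log2 in cells 1, 2 and 3. Pearson's r across genes, which are not independent replicates, was 0.473 for cells 1 and 2, 0.437 for cells 1 and 3 and 0.676 for cells 2 and 3.

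Taken as genes, the 5 members read in the upper part of the arrays. Their median percentile was 89.8 in cell 1, 86.9 in cell 2 and 86.5 in cell 3, or 87.8 ± 1.81 (SD, n = 3 cells), where the median gene of an array lies at the middle by construction. A total of 4 of the 5 lay above the median gene in every cell, compared with 26.4% of all genes, and the exception was Marcks in cell 3. In the top 5% were 1 member in cell 1 (Gap43), 1 in cell 2 (Nrgn) and 2 in cell 3 (Nrgn and Pcp4). The rule places 5.01%, 5.01% and 5% of all genes there, and no member was in the top 5% of every cell, against 1.39% of all genes. Above background were 2, 1 and 2 members in cells 1, 2 and 3, where 7.4%, 5.56% and 10.3% of all genes passed. Of the 133 silent genes 7 passed in each cell, a share close to that of all genes in cell 2. In the top 5% of cells 1, 2 and 3 were 4, 6 and 2 silent genes. Nrgn was above background in every cell, as were 2.07% of all genes and 2 of the silent genes. With background at the 99th percentile of the silent genes Nrgn no longer passed in cell 1. The members were picked with these readings in view, so nothing is read from the shares.

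**Figure D1:**
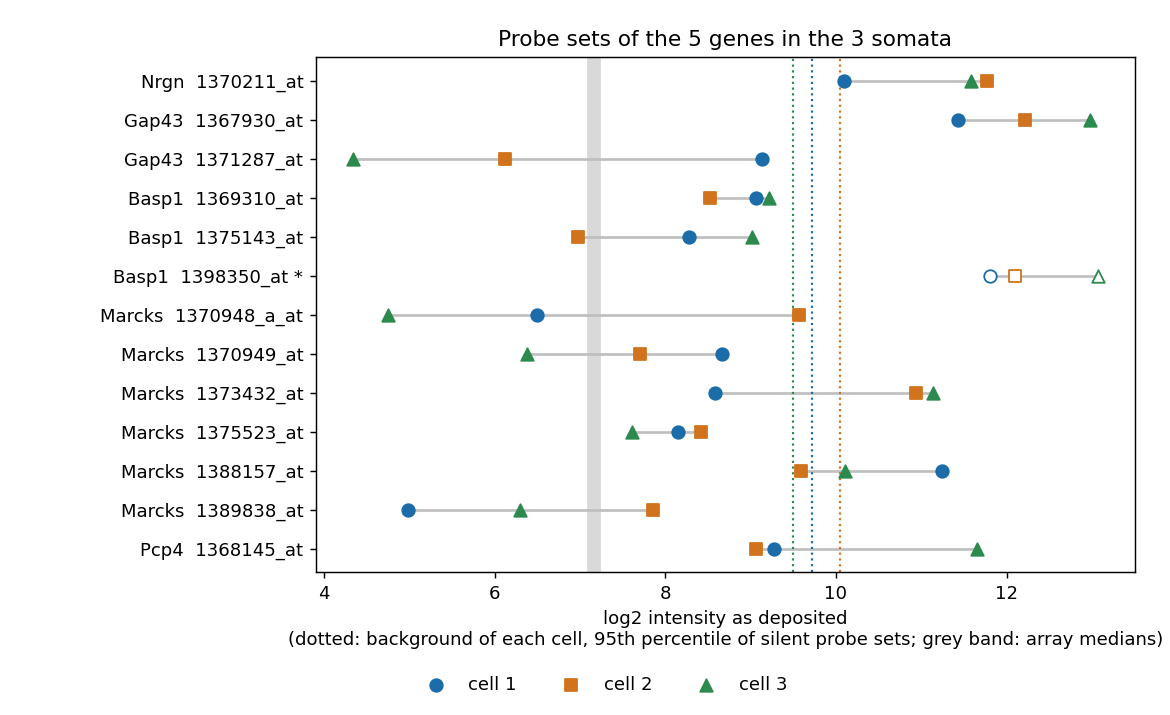
Log2 intensity of each probe set of the 5 genes (horizontal axis), as circles for cell 1, squares for cell 2 and triangles for cell 3, with dotted lines at the background of each cell and a grey band over the array medians. Open symbols and the asterisk mark a probe set that the probe map of the study, but not the platform annotation, gives to Basp1. Nrgn and the probe set 1367930_at of Gap43 are above background in every cell, while the other probe set of Gap43 runs from 9.13 down to 4.34.

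Nrgn was the member with the highest mean percentile, 97.7, when probe sets were summarised by their median. With the brightest probe set per gene it had 95.7 and came after Gap43 at 98.97. Its single probe set, 1370211_at, read 10.10, 11.77 and 11.58 log2 in cells 1, 2 and 3, a mean of 11.15 ± 0.92 (SD, n = 3 cells). Its percentiles were 94.8, 99.4 and 98.8, so that it just missed the top 5% in cell 1. Cell 1 was the low cell, and cells 2 and 3 lay close together. In log2 units Nrgn stood 0.43, 1.73 and 2.10 above the background of cells 1, 2 and 3.

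Pcp4, the other small IQ-motif protein of the set, came next in mean percentile. Its single probe set, 1368145_at, read 9.28, 9.07 and 11.65 log2 in cells 1, 2 and 3, or 9.999 ± 1.44 (SD, n = 3 cells), with percentiles of 89.8, 86.9 and 98.96. It was high in cell 3 alone. There it stood 2.17 log2 above background, while in cells 1 and 2 it fell short of it (-0.39 and -0.98). In cell 3 Pcp4 and Nrgn read alike, 98.96 and 98.84 in percentile, although Nrgn was ahead by 5.00 points in cell 1 and by 12.5 in cell 2.

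Gap43 gave opposite readings from its pair of probe sets. Probe set 1367930_at read 11.43, 12.22 and 12.98 log2 in cells 1, 2 and 3, and 1371287_at read 9.13, 6.12 and 4.34. The former was the only one of the 12 member probe sets in the top 5% of all probe sets in every cell (98.7, 99.5 and 99.7), a place that 1.58% of all probe sets hold. The latter went from a percentile of 86.2 in cell 1 to 26.8 in cell 2 and 1.89 in cell 3. The gap between them was 2.30 log2 in cell 1, 6.10 in cell 2 and 8.64 in cell 3, while the median gap over the 3061 genes with 2 probe sets, manufacturer controls left out, was 1.48, 1.55 and 1.60. In cell 3 the gap of Gap43 exceeded that of 99.9% of those genes. The 3′ excess of Gapdh was likewise small in cell 1 and large in cells 2 and 3, and its part in the gap of Gap43 was not tested. Positions of the probe sets on the transcript were not used here.

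The median of these probe sets puts Gap43 at 10.28, 9.17 and 8.66 log2 in cells 1, 2 and 3 (9.37 ± 0.83, SD, n = 3 cells), with percentiles of 95.7, 88.1 and 81.2. Read this way cell 1 was highest and cell 3 lowest, and with 1367930_at alone the order was the reverse. The brightest probe set per gene gave Gap43 a mean percentile of 98.97, in place of 88.3. A mean level of Gap43, and the cell in which it is highest, therefore depend on the probe set.

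**Figure D2:**
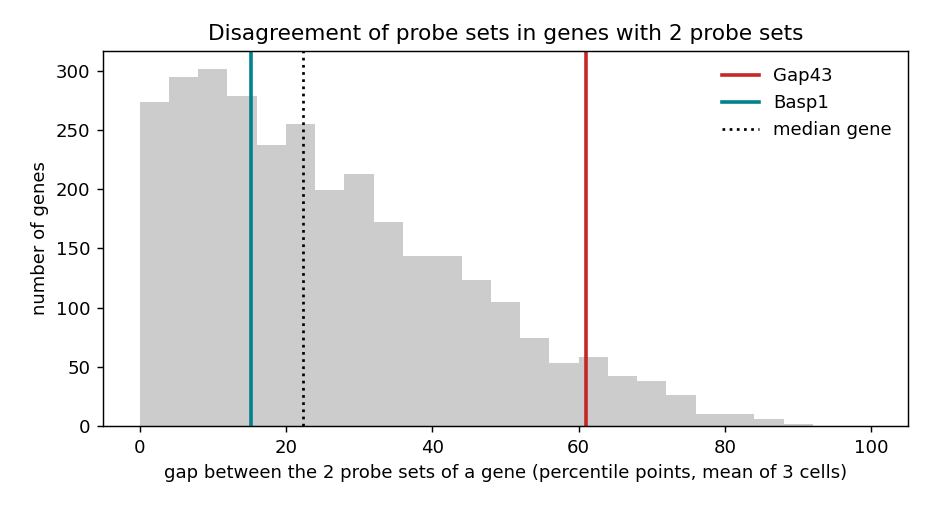
Number of genes (vertical axis) by the gap between their 2 probe sets in percentile points, averaged over the 3 cells (horizontal axis), for the 3061 genes with 2 probe sets. Gap43 lies at 61.0 points, beyond 94.2% of these genes, and Basp1 at 15.2, under the median gene at 22.4.

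Basp1, the brain acid soluble protein of growth cones and nerve endings, read lower, and its annotated probe sets moved together. Probe set 1369310_at read 9.06, 8.53 and 9.21 log2 in cells 1, 2 and 3, and 1375143_at read 8.28, 6.98 and 9.01. Neither was above background in any cell, and for both cell 2 was the lowest and cell 3 the highest. They moved the same way in 3 of 3 pairs of cells, as did 19.4% of genes with 2 probe sets, whereas those of Gap43 did so in 0 of 3, as did 15.4%. Basp1 as a gene lay at 8.51 ± 0.69 log2 (SD, n = 3 cells) and at percentiles of 82.7, 63.7 and 86.5.

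Another probe set, 1398350_at, has no symbol in the platform annotation, but the probe map that the study published gives it to Basp1. It read 11.81, 12.10 and 13.07 log2 in cells 1, 2 and 3, at percentiles of 99.2, 99.4 and 99.8 of all probe sets. These values were above background in all 3 somata and over both annotated probe sets. Their SD of 0.66 log2 lay between those of 1369310_at (0.36) and 1375143_at (1.03). With this probe set added, the median of 3 moved the mean percentile of Basp1 from 77.7 to 85.05. With it taken as the brightest probe set of the gene, Basp1 stood at 99.2 ± 0.388.

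Marcks, the myristoylated substrate of protein kinase C, was read by 6 probe sets that ranged over most of the scale. The brightest on average was 1388157_at, at 11.24, 9.59 and 10.11 log2 in cells 1, 2 and 3, with percentiles of 98.2, 89.6 and 92.1. Next was 1373432_at, at 8.59, 10.94 and 11.14, with percentiles of 79.1, 96.9 and 97.0. The former was highest in cell 1 and the latter lowest there.

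The other probe sets of Marcks read lower on average and were never above background. Values were 8.15, 8.42 and 7.61 log2 in cells 1, 2 and 3 for 1375523_at and 8.67, 7.71 and 6.38 for 1370949_at. Probe set 1370948_a_at swung most, with 6.49, 9.56 and 4.75, and 1389838_at read 4.98, 7.86 and 6.29. Of the 6 probe sets, 4 exceeded the array median in cell 1, 6 in cell 2 and 3 in cell 3. From cell 1 to cell 2, 4 read higher and 2 lower, and from cell 1 to cell 3 it was 2 and 4. The lowest and highest mean percentiles were 34.8 and 93.3, a range of 58.5 points, under the median range of 67.6 over the 25 genes with 6 probe sets.

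As a gene, Marcks had medians of 8.37, 8.99 and 6.998 log2 in cells 1, 2 and 3 (8.12 ± 1.02, SD, n = 3 cells) and percentiles of 77.6, 86.0 and 45.0. Its mean percentile, 69.5 ± 21.7, was the lowest of the set by this median, and its spread in percentile the widest. With the brightest probe set per gene Marcks had 90.6 ± 6.09, above Pcp4 (87.3) and Basp1 (78.0). The widest spread was then that of Pcp4 (SD 9.37). By the median of the 6 probe sets cell 3 was the low cell, near the level of the median gene. With 1388157_at, the brightest on average, cell 2 was lowest, and with 1373432_at cell 1 was lowest. The means of these 2 probe sets were close, at 10.31 and 10.22 log2, so the low cell depends on the probe set.

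Ordered by mean percentile the members ran Nrgn (97.7), Pcp4 (91.9), Gap43 (88.3), Basp1 (77.7) and Marcks (69.5). No step between neighbours in this order held beyond the spread between cells. Nrgn exceeded Pcp4 in 2 of 3 cells (mean difference 5.78 ± 6.33 points), Pcp4 exceeded Gap43 in 1 (3.57 ± 12.5), Gap43 exceeded Basp1 in 2 (10.7 ± 15.0) and Basp1 exceeded Marcks in 2 (8.14 ± 32.0). Further apart in the order, Nrgn and Pcp4 lay above Basp1 and Marcks in every cell, and Gap43 above Marcks. This too holds for the median of the probe sets.

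The members did not move together from cell to cell. After quantile normalisation, the difference between cells 2 and 1 was 1.58 log2 for Nrgn and 0.64 for Marcks, but -0.29 for Pcp4, -0.93 for Basp1 and -1.17 for Gap43. Between cells 3 and 1 it was 2.16 for Pcp4, 1.21 for Nrgn and 0.40 for Basp1, but -1.28 for Marcks and -1.77 for Gap43. Between cells 3 and 2 it was 2.45 for Pcp4 and 1.32 for Basp1, but -0.37 for Nrgn, -0.60 for Gap43 and -1.92 for Marcks. Each pair of cells thus had members going either way. The median over all genes was 0.14, 0.26 and 0.07 for the same pairs, and relative to it all 5 members kept their sign in each pair. With the brightest probe set per gene, all 3 differences of Gap43 and 2 of the 3 of Marcks changed sign.

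The differences of Pcp4 and Marcks between cells 3 and 2 exceeded in size those of 94.5% and 88.8% of all genes. That of Marcks was -0.75 without the probe set 1370948_a_at and 0.39 with the brightest probe set, so its size and sign depend on the summary. The median absolute difference of the members was 0.93, 1.28 and 1.32 log2 for cells 2 and 1, 3 and 1, and 3 and 2, beside 0.92, 1.01 and 0.74 for all genes. Spread over the 3 cells, as the SD of quantile-normalised log2 values, was 1.34 for Pcp4, 0.98 for Marcks, 0.90 for Gap43, 0.83 for Nrgn and 0.68 for Basp1. The median SD of all genes was 0.77. Among 711 genes of like mean level, Pcp4 was more variable than 83.8% and the other members lay between 37.6% and 58.2%. Without cell 3 the SD of Pcp4 was 0.20.

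**Figure D3:**
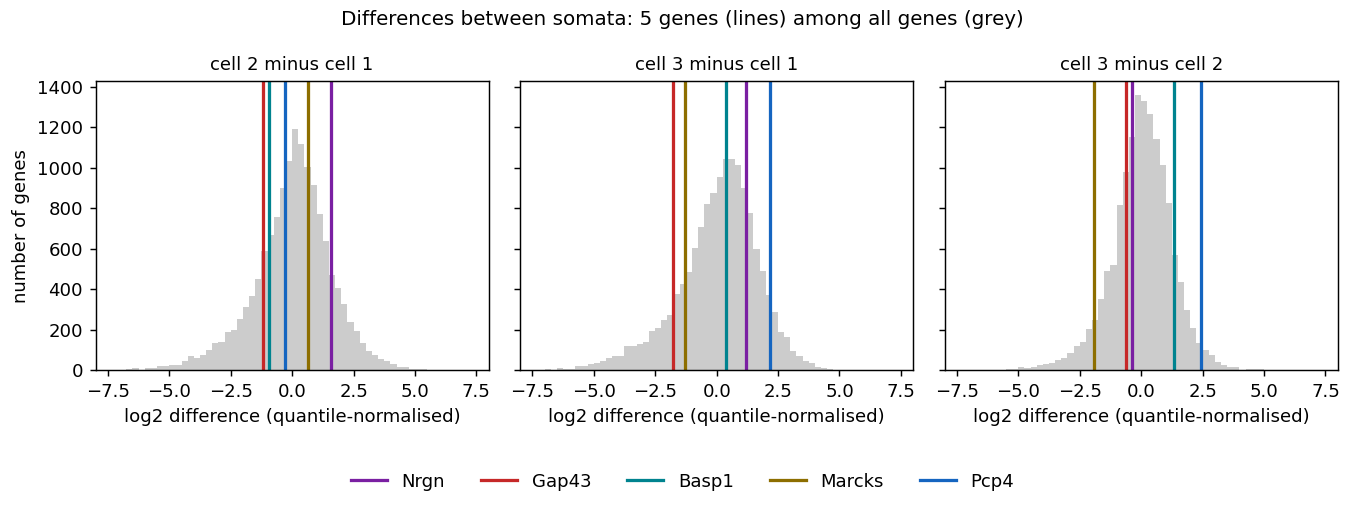
Number of genes (vertical axis) by the log2 difference between somata after quantile normalisation (horizontal axis) for the 3 pairs of cells, in grey, with coloured lines at the 5 members. The members fall on either side of 0 in each panel, and Pcp4 lies at 2.45 and Marcks at -1.92 between cells 3 and 2, the latter value changing to -0.75 without 1370948_a_at and 0.39 with the brightest probe set.

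Paralogues and calmodulin itself were read beside the members. Marcksl1, the smaller relative of Marcks, read 9.37, 10.56 and 11.24 log2 in cells 1, 2 and 3, at percentiles of 90.6, 96.7 and 98.1, so that it was highest in cell 3. Calm2, which encodes calmodulin, read 10.19, 9.85 and 11.10 (95.3, 93.4 and 97.7). Gprin1, a growth cone protein that binds G proteins, read 6.11, 8.21 and 10.40 (19.5, 73.8 and 94.9). The Pcp4 paralogue Pcp4l1 was low at 7.24, 6.30 and 6.42 (49.1, 25.9 and 30.4).

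Growth cone genes were the related list whose level came nearest to that of the members, apart from these relatives. Over 27 genes their median percentile was 71.9, 82.3 and 90.9 in cells 1, 2 and 3, with 5, 5 and 9 genes in the top 5% and 3 there in every cell. Of all genes, 5.01%, 5.01% and 5% were in the top 5% of cells 1, 2 and 3, and 1.39% in that of every cell. Rtn1 (a reticulon), at 13.41 ± 0.48 log2 (SD, n = 3 cells), and Crmp1 (a collapsin response mediator), at 12.37 ± 0.81, led the list. Dpysl3, of the same family as Crmp1, was its lowest member at percentiles of 55.9, 23.9 and 22.8, followed by the actin binder Pfn1 at 7.69, 62.0 and 27.4. The list was highest in cell 3. The median of the 5 members differed by little between cells, but different genes held it. These were Pcp4 in cells 1 and 2 (89.8 and 86.9) and Basp1 in cell 3 (86.5). Percentile SDs of single members ran from 2.48 (Nrgn) to 21.7 (Marcks), against 1.81 for their median. The SD of that median was 5.80 where genes took their brightest probe set.

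Enzymes that act on the members or on their lipids lay near the median gene. The isoforms of protein kinase C had a median percentile of 41.7, 50.7 and 54.3 in cells 1, 2 and 3 (8 genes). None of the 8 was above background in any cell, where 7.4%, 5.56% and 10.3% of all genes passed in cells 1, 2 and 3. The highest were Prkcq (85.9, 85.0 and 72.3) and Prkcb (24.0, 87.1 and 72.1), and the lowest Prkce (63.9, 33.7 and 26.7) and Prkci (25.4, 56.5 and 37.4).

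Other proteins that bind calmodulin lay at 39.6, 49.2 and 55.5 (32 genes), with 2, 0 and 3 in the top 5%, beside 5.01%, 5.01% and 5% of all genes. Camk2g, a subunit of calcium/calmodulin kinase II, stood at 96.5, 94.8 and 95.7 and the adducin Add1, which has a region related to the one in Marcks, at 94.05, 92.9 and 90.2. Add3, another adducin, was low at 5.21, 33.9 and 15.5, and the adenylyl cyclase Adcy8 at 4.97, 30.0 and 5.81.

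Genes of phosphoinositide turnover lay at 56.9, 49.4 and 50.7 (32 genes). In the top 5% of every cell, which holds 1.39% of all genes, were 2 of them. These were Pitpnb, which transfers phosphatidylinositol between membranes, at 12.23 ± 0.19 log2, and Synj1, the phosphatase synaptojanin that removes phosphoinositides from vesicles, at 11.64 ± 0.25 (SD, n = 3 cells). The phospholipase Plcd1 (20.03, 4.66 and 13.3) and the lipid kinase Pi4k2a (13.7, 9.66 and 48.9) were the lowest. Enzymes that attach or remove fatty acids lay at 43.7, 54.9 and 62.8 (21 genes), led by the depalmitoylating thioesterases Lypla2 (88.4, 97.8 and 95.7) and Lypla1 (52.8, 90.9 and 91.9). At their lower end were the palmitoyltransferase Zdhhc2 (2.76, 20.9 and 1.45) and the depalmitoylase Abhd17b (91.2, 8.63 and 11.1). RNA-binding proteins with a known tie to Gap43 or to neuronal transcripts lay at 48.1, 44.6 and 63.7 (9 genes). Among them Elavl4 (HuD), which stabilises the Gap43 transcript, stood at 85.6, 62.8 and 26.7. The highest were Elavl3 (61.7, 87.2 and 94.3) and Elavl1 (71.3, 39.0 and 81.0), and the lowest Fmr1 (5.60, 44.6 and 5.10) and Elavl2 (10.9, 41.9 and 25.3).

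**Figure D4:**
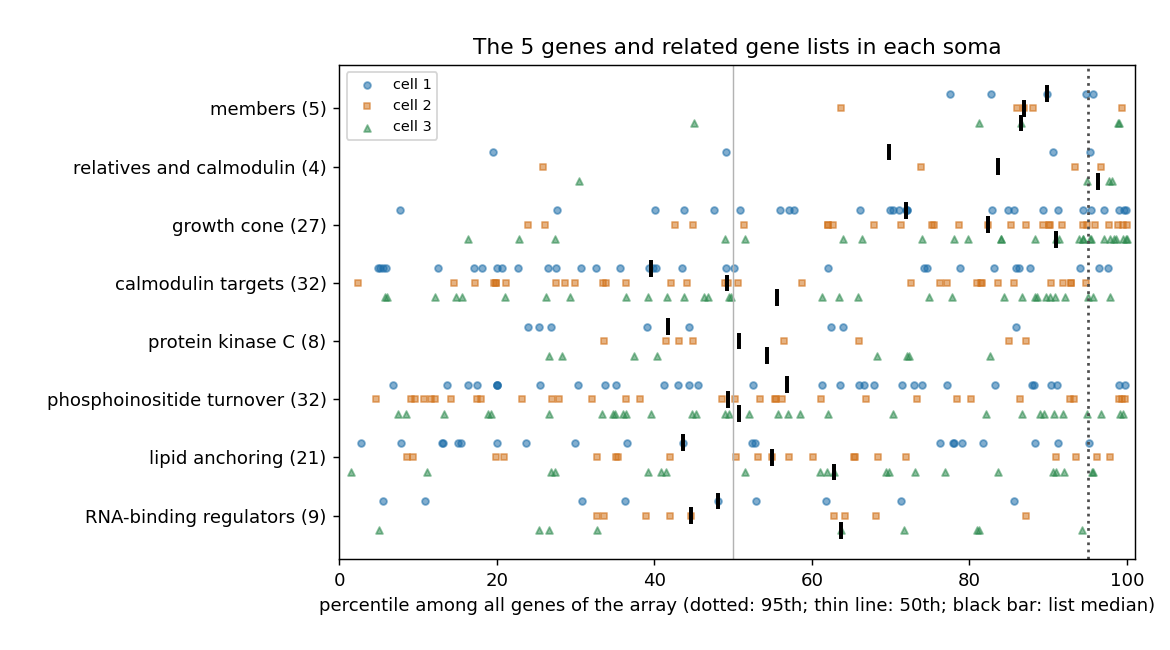
Percentile among all genes of the array (horizontal axis) for the 5 members and 7 related lists, 1 point per gene, as circles for cell 1, squares for cell 2 and triangles for cell 3, with black bars at the median of each cell and the number of genes in brackets. The members and the growth cone list have their medians above 70 in every cell, and the medians of the calmodulin, protein kinase C, phosphoinositide and fatty acid lists lie between 39.6 and 62.8.

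Genes with the most similar readings were found by the mean absolute difference in percentile over the 3 cells. For Nrgn they were Hnrnpl (0.0903 points away), Chrna1 (0.189) and Mapk14 (0.341), for Pcp4 Iqsec3 (0.947), Schip1 (1.09) and Rundc3b (1.24), and for Gap43 Rims3 (0.444), Sumo2 (1.16) and Gapdh (1.29), which is read here only by manufacturer control probe sets. For Basp1 they were Hcn2 (0.382), Rasgrp4 (1.34) and Bnip3l (1.41), and for Marcks E2f4 (1.22), Sorbs3 (1.37) and Rbm45 (1.55). With 3 cells such likeness is common at the upper end of the arrays. A total of 196 genes lay within 2 points of Nrgn, but 13, 10, 6 and 4 within 2 points of Gap43, Pcp4, Marcks and Basp1. The profile of Gap43 used here is the middle of 2 probe sets that moved in opposite directions, and that of Marcks the median of 6 that disagreed. Their nearest genes hold for the median alone, and those of single probe sets were not sought.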

How the data were processed

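Arrays were Affymetrix rat genome arrays with 5 µg of amplified RNA each, after 2 rounds of amplification and a final one of 14 h. The authors deposited log2 values per probe set, and the labels name RMA 2.0. The methods of the study state an upper-decile summary, median centring and scaling for dendrite and tissue arrays, but the deposited log2 values were not centred on a common median. The number of arrays limits the precision.

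Symbols came from the platform annotation, which can be old: of 31099 probe sets, 20832 carried 1 symbol, 436 several and 9831 none, 57 of the table being controls. Genes took the median of their probe sets (14218 genes, 4526 with 2 or more) and were ranked within each array, with ties at their mean rank. Probe sets were ranked among the 31042 that are not controls. Differences between cells used quantile normalisation over all probe sets. Background was the 95th percentile of 133 silent genes (28 chemosensory receptors and 105 genes of other organs). The code was tested on simulated data (Python 3.11.15, pandas 2.3.3, numpy 2.4.6).

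The members and lists were chosen with earlier results of these data known. Named were all members and their probe sets, 6 relatives (4 measured), the 2 highest and 2 lowest genes by median percentile of the other lists that bear on the members, and the 3 genes nearest to each member. Map2, Syt1, Mapt, the pyramidal markers and the single markers of other cell types serve to check the label, and Elavl4 was named for its tie to Gap43. Alternatives changed the probe-set summary, the ranking, the background and the normalisation or left out 1 cell. Use of the study's probe set of Basp1 was chosen after seeing the data. Sequence features of the proteins were not analysed here.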

Additional observations from a re-analysis of the deposited data

How the results depend on the processing

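No paired analysis was possible because the series has 1 group. Leaving out a cell gives no difference for the pairs that hold it. Of 104 percentiles, counts and list medians recomputed with other settings, 78 moved by less than the spread between cells or, as counts, stayed within 1.5 times, and of 60 differences between cells 53 did so. Part of these matches was fixed in advance, so the counts do not measure how robust the results are. The brightest probe set cannot change the differences of Nrgn and Pcp4, which have 1 probe set each. Without ambiguous probe sets the differences of every member but Marcks stayed identical. Adding the study's probe set to the median of Basp1 left the percentiles of the other members unchanged. The brightest probe set per gene moved Gap43 to a mean percentile of 98.97 and the median of the members to 91.5, with 2 members in the top 5% of cell 1, 2 of cell 2 and 1 in every cell (Gap43), where 1.82% of all genes were. It also put 2 members above background in cell 2, 4 in cell 3 and 2 in every cell, and reversed the differences of Gap43 (0.70, 1.21 and 0.52 log2 for cells 2 minus 1, 3 minus 1 and 3 minus 2) and 2 of those of Marcks (-1.80 for cells 2 minus 1 and 0.39 for 3 minus 2). The spread of Basp1 was then 0.36 log2. With 1398350_at counted for Basp1 as well, a setting chosen after seeing the data, mean percentiles were 98.96 for Gap43, 99.2 for Basp1 and 97.9 for the median of the members, with 3, 3 and 4 members in the top 5% of cells 1, 2 and 3 and 2 in every cell (Gap43 and Basp1), where 1.83% of all genes were. Ranking probe sets in place of genes gave 68.8 for Gap43 and 85.2 for the median of the members, with 0 members in the top 5% of cell 1. Ranking only genes with a mean above the median lowers percentiles by construction, to 77.2 for Gap43, 59.03 for Basp1, 84.5 for Pcp4 and 76.3 for the median of the members, again with 0 in the top 5% of cell 1. Without ambiguous probe sets, which removes 1370948_a_at, Marcks differed by -0.17 log2 for cells 2 minus 1 (reversed) and -0.75 for cells 3 minus 2 and had a spread of 0.49, and protein kinase C had a mean list percentile of 40.9. With background at the 99th percentile of the silent genes, 0 members passed in cell 1 and 0 in every cell, Nrgn and Gap43 being lost in cell 1. Leaving out 1 cell in turn gave 0 to 1 members in the top 5% of all remaining cells (1, Nrgn, without cell 1) and spreads of 0.26 to 1.11 log2 for Nrgn, 0.42 to 1.25 for Gap43, 0.28 to 0.94 for Basp1, 0.45 to 1.36 for Marcks and 0.20 to 1.73 for Pcp4. Apart from construction, the cause of these changes was not tested. With 3 arrays and values near background for most members, small differences cannot be resolved.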
